A study of Mus musculus with 20 samples.

Results

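Wild-type mouse embryonic fibroblasts (MEFs) undergoing reprogramming were compared on day 5 and day 10 for trimethylation of histone H3 at lysine 27 (H3K27me3), measured by chromatin immunoprecipitation followed by sequencing (ChIP-seq). The comparison used 2 of the 20 samples of the series, each with its own list of called peaks, and held 6428 peaks on day 5 and 5131 peaks on day 10. Of all samples, 14 had a peak list and 10 of these were for H3K27me3. Both lists were taken whole, by sample label.

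Both libraries came from Jmjd3+/+ MEFs (strain label C57BL/6J-OG2, OG2 being an Oct4-GFP reporter) that received OCT4, SOX2, KLF4 and c-MYC (OSKM), by retrovirus in the study's methods and by lentivirus in the labels, together with a FLAG control vector in place of the demethylase JMJD3. Day 0 was the first infection, and the medium contained vitamin C from the end of the infection onwards. Cells were taken as bulk populations labelled as presumed intermediate reprogrammed cells, and a peak absent from bulk cells cannot be told apart as fewer marked cells or as less mark per cell. The same lists from untreated MEFs, from OSKM cells with exogenous JMJD3 and from Jmjd3-/- cells (KO, strain label C57Bl6J) served as reference, so that genotype and strain label cannot be told apart in any comparison with KO. Elsewhere the study describes its wild-type and Jmjd3-/- MEFs as littermates without the reporter, which differs from these strain labels. There was 1 library per group. No difference therefore had a replicate check, and the 95% intervals (Wilson for shares, Newcombe for differences, Poisson for ratios) cover counting error only and treat neighbouring peaks as independent. Deeper sequencing can add called peaks, and the peak files carry no read totals by which to judge this. Read totals that the study lists elsewhere were not used here.

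H3K27me3 is a repressive mark. Polycomb repressive complex 2, with its catalytic subunit EZH2 or EZH1, places the methyl groups, and JMJD3, encoded by Kdm6b, is among the enzymes that take them off. The mark covers CpG-rich promoters of silent developmental regulators, which embryonic and adult cells keep off outside their own lineage. During reprogramming of fibroblasts, epithelial and then pluripotency genes have to be activated and fibroblast genes have to be silenced.

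Central 300 bases of 6 peaks are shown here as examples of sequence at peaks called on both days, lost by day 10 or newly called, classes whose CpG content is compared later. They do not stand for the averages of their classes. Sequence was read from RefSeq GRCm38.p6 (the mm10 build), plus strand, with every CpG dinucleotide in capitals. Genes were picked from the epithelial, pluripotency and fibroblast lists after their values were seen. Utf1 (pluripotency cofactor, chr7:139944406-139944705, exon) and Grhl2 (epithelial transcription factor, chr15:37233742-37234041, intron) had a peak on both days and held 23 and 22 CpGs in this window.
Utf1: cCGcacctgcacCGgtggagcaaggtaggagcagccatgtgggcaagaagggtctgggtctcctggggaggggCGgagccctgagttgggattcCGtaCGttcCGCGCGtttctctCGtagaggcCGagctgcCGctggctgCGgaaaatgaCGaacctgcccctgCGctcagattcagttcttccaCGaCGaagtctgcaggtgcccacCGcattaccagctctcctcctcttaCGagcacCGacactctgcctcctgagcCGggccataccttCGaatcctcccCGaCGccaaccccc
Grhl2: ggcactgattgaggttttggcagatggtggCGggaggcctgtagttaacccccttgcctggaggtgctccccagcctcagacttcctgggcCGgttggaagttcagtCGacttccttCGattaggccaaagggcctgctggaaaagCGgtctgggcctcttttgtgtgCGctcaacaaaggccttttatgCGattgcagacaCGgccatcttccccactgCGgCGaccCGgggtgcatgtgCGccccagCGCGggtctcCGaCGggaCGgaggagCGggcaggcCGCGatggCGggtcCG

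Lin28b (RNA-binding protein of stem cells, chr10:45473320-45473619, intron) and Cdh1 (E-cadherin, the main adhesion molecule of epithelia, chr8:106603814-106604113, intron) had a day 5 peak only, with 2 and 15 CpGs in the window.
Lin28b: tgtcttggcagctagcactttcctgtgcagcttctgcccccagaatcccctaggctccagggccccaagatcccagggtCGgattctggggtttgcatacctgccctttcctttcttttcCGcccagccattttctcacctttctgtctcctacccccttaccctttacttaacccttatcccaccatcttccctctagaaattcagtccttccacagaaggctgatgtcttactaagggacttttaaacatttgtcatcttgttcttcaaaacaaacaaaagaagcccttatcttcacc
Cdh1: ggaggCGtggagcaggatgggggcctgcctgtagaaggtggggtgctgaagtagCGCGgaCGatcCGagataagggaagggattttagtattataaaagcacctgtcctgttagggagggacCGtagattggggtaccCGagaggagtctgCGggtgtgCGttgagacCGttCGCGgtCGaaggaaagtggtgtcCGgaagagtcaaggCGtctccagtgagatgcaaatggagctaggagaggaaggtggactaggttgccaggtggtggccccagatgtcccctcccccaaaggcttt

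Col5a1 (a fibrillar collagen chain, chr2:27887267-27887566, intron) and Cdh11 (a cadherin of mesenchymal cells, chr8:102784698-102784997, intron) had a day 10 peak only, with 6 and 15 CpGs.
Col5a1: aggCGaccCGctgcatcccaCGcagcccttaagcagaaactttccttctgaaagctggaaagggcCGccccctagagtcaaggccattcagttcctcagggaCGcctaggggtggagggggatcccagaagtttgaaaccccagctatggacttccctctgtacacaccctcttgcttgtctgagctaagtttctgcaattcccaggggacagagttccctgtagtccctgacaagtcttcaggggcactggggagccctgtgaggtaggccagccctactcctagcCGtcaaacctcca
Cdh11: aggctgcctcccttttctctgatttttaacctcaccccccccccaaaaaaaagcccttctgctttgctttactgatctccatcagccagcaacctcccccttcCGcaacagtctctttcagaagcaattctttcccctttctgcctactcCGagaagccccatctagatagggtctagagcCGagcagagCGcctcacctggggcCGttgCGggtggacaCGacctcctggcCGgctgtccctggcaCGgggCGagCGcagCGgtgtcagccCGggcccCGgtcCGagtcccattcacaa
Both kept windows were CpG-dense, whereas the lost pair and the new pair each held a CpG-poor window and a denser one.

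The first question was how many H3K27me3 peaks of day 5 were still called on day 10. Fewer peaks were called on day 10, with a ratio of 0.798 (0.769 to 0.828), and the length covered went from 6361 kb to 5071 kb. Because the Drosophila spike-in of the study was not stated to enter the peak calls, this is a change in the number of called regions and not in the amount of the mark. Of the 6428 day 5 peaks, 3082 had no overlapping day 10 peak (47.9%, 46.7 to 49.2) and are called lost, whereas 3346 were kept. Of the 5131 day 10 peaks, 1737 had no overlapping day 5 peak (33.9%, 32.6 to 35.2) and are called new. When the day 5 list was shortened to its 5131 highest-scoring peaks, 39.3% (38.0 to 40.7) were lost and 37.9% (36.6 to 39.3) of the day 10 peaks were new. At equal length both shares are bound to be close, because most matched peaks overlap a single peak of the other list. Of the 1947 new peaks at equal length, 10.8% overlapped a day 5 peak below the shortened list.

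Peaks missing on the other day were mostly weak ones. The score, a number from the authors' peak caller whose scale is not stated and whose highest value is 200, had a median of 8.95 at lost peaks and 24.2 at kept peaks on day 5. On day 10 it was 8.04 at new peaks and 13.4 at shared ones. In the highest-scoring quartile of the day 5 list 8.90% (7.60 to 10.4) were lost, in the next quartiles 34.8% and 66.7%, and in the lowest quartile 81.4% (79.4 to 83.2). New peaks made up 3.04% (2.23 to 4.13) of the highest quartile of day 10 and 62.7% (60.0 to 65.3) of the lowest. None of the 100 highest-scoring peaks of either day was missing from the other list. The order within the lists was less alike, as 55 of the 100 highest-scoring day 5 peaks were outside the highest 100 of day 10. Across the 3346 kept peaks Spearman's rho between the scores of both days was 0.593, given as a description because both lists share the base composition of the sites.

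**Figure D1:**
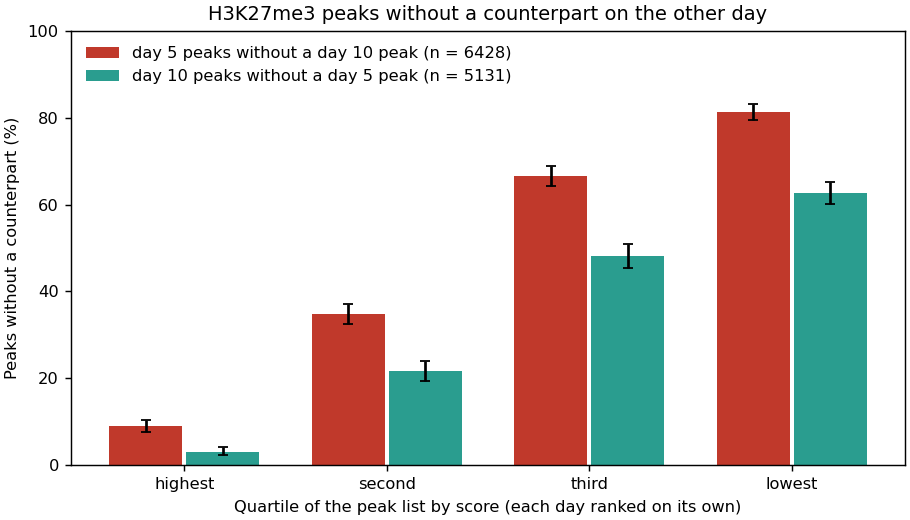
Bars give the share of H3K27me3 peaks without an overlapping peak on the other day (%, y axis) in each quartile of the list by score (x axis, highest to lowest), for day 5 peaks (red) and day 10 peaks (green), with 95% Wilson intervals as error bars. The share climbs from 8.90% to 81.4% for day 5 peaks and from 3.04% to 62.7% for day 10 peaks.

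Calls depended in part on the overlap rule of 1 bp. With an overlap of at least 50% required, 55.4% of day 5 peaks were lost and 43.8% of day 10 peaks were new. Among lost peaks 139 of 3082 (4.51%) had a day 10 peak within 1 kb and 23.9% had one within 10 kb. The lost peak nearest to a day 10 peak lay 1 bp away, beside Sp8, and 31 lost peaks lay less than 100 bp away. The kept peak with the smallest overlap, 1 bp, was nearest to Mycn, and 38 kept peaks overlapped by less than 100 bp against a median overlap of 789 bp. The highest-scoring lost peak, in an intron of Comp (cartilage oligomeric matrix protein, score 93.1, rank 153), was close to the limit, since a new day 10 peak began after a gap of 84 bp.

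Peaks were 1000 bp wide and mostly isolated. Chaining day 5 peaks within 3 kb left 5844 single peaks and 265 domains of 2 or more peaks. Of these domains 112 were lost whole, 101 lost some peaks and 52 lost none. In consequence 121 of the 3082 lost peaks (3.93%, 3.30 to 4.67) lay in a domain that kept another peak. Tbx20, a cardiac T-box factor, had the domain with the most peaks, of which 3 of 6 were lost. Insm1, a zinc-finger factor of neuroendocrine differentiation, had 5 peaks over 8.50 kb, and all 5 were lost. All 3 peaks of the domains at Pax9 and Sp5 were lost as well.

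Where lost peaks lay was compared next, since position and sequence had not been used to define the classes. Kept peaks were promoter peaks to a larger extent. Of kept peaks 73.8% (72.3 to 75.3) were centred within 5 kb of a transcription start site (TSS), against 48.7% (46.9 to 50.4) of lost peaks and 40.8% (38.5 to 43.1) of new peaks, and 18.5% of the sequenced genome. The difference of lost minus kept peaks was -25.1 points (-27.4 to -22.8), and -9.35 points on average within quartiles of the day 5 score. Lost peaks were outside genes in 44.5% of cases and kept peaks in 24.2%, whereas 13.9% and 31.4% were centred in an exon. The median distance to the nearest protein-coding TSS was 1.12 kb for kept, 10.3 kb for lost and 17.6 kb for new peaks. By nearest gene, lost peaks fell to 2226 genes and kept peaks to 2596, with 713 genes nearest to both kinds. New peaks were nearest to 1369 genes, and 586 of these were the nearest gene of no day 5 peak.

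CpG content separated the classes in the same order. The median ratio of observed to expected CpGs was 0.563 in kept, 0.316 in lost and 0.264 in new peaks. Peaks with at least 50% GC and a ratio of at least 0.6, called CpG-rich here, made up 42.2% (40.6 to 43.9) of kept peaks, 13.0% (11.8 to 14.2) of lost peaks and 7.43% (6.29 to 8.76) of new peaks. CpG-rich peaks were lost in 22.1% of cases within 5 kb of a TSS and in 22.1% beyond, whereas other peaks were lost in 48.2% and 68.7%. CpG-rich peaks were lost less often in each score quartile, from 7.46% against 11.1% in the highest to 65.8% against 82.6% in the lowest, although in the highest quartile the intervals of 5.97 to 9.27 and 8.92 to 13.8 overlapped. Repeat-masked sequence covered at least 50% of 1.49% of lost, 0.448% of kept and 1.27% of new peaks.

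**Figure D2:**
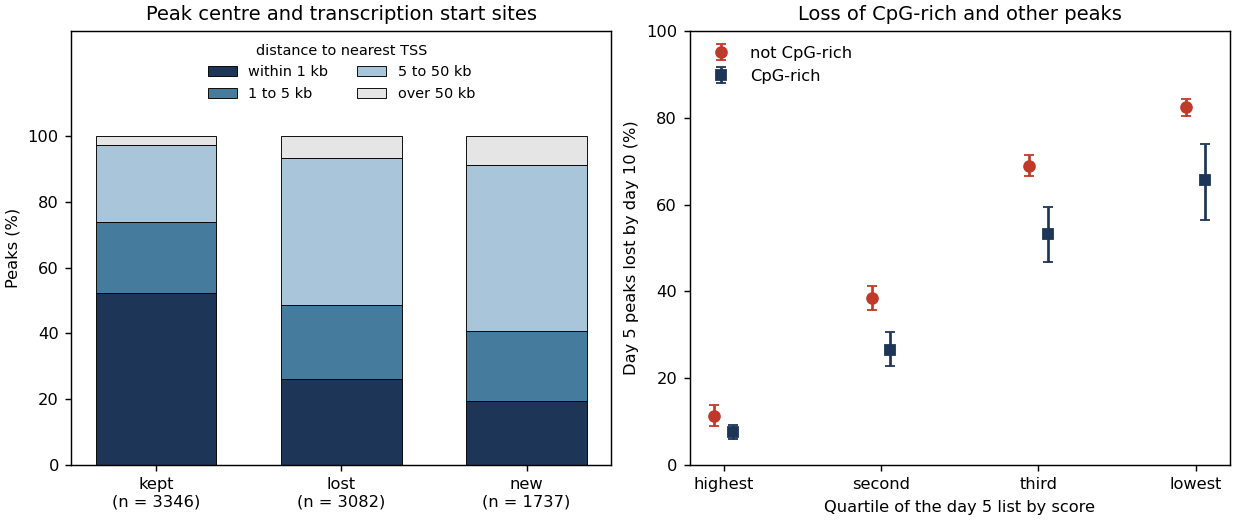
Left, share of kept, lost and new peaks (%, y axis) by distance of the peak centre to the nearest TSS, as stacked bars. Right, share of day 5 peaks lost by day 10 (%, y axis, 95% Wilson intervals) in each quartile of the day 5 score (x axis) for CpG-rich peaks (squares) and other peaks (circles). Kept peaks lie within 1 kb of a TSS in 52.2% of cases and new peaks in 19.3%, and CpG-rich peaks lie below other peaks in each quartile.

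At the level of genes, a protein-coding gene was counted on a day when a peak was centred within 5 kb of one of its TSSs. Of 21911 genes 3184 had a day 5 peak (14.5%) and 2610 a day 10 peak, 2271 of them on both days. A day 5 peak without a day 10 peak was found at 913 genes (28.7% of the 3184, 27.1 to 30.3). A day 10 peak without a day 5 peak was found at 339 of the remaining genes (1.81%). For 8 of the 913 and 7 of the 339 genes the peak itself was shared and only its centre crossed the 5 kb limit. Neighbouring genes, such as those of the Hox clusters, can share 1 peak.

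Of developmental transcription factors, homeobox and forkhead genes had shares without a day 10 peak whose intervals lay below the 28.7% of all genes. This held for neither list within 1 kb of a TSS, nor for forkhead genes at equal list length (interval up to 24.6%, all genes 24.5%). Both lists had more day 5 peaks per gene. Pairs of a gene and a nearby day 5 peak numbered 150 at 86 homeobox genes, 30 at 19 forkhead genes and 3618 at all 3184 genes. A gene with several peaks lacks a day 10 peak only when none is called near it, and the shares were not adjusted for this. Of 89 homeobox genes outside the Hox clusters 86 had a day 5 peak and 79 a day 10 peak, and 9 of the 86 (10.5%, 5.60 to 18.7) had none on day 10. Those 9 were Dlx1, Dlx3, En1, Gbx2, Irx1, Meox2, Pax3, Pax9 and Vax2. Dlx3, a factor of epidermis and placenta, had the highest day 5 score among them (51.6). In all other day 10 H3K27me3 libraries, with exogenous JMJD3 or from KO cells, Dlx3, Pax9 and Vax2 had a peak. Dlx1, En1, Gbx2, Irx1 and Pax3 had one in some of those libraries, and Meox2 in none. Within 1 kb of a TSS 18 of 53 homeobox genes (34.0%) and 32.8% of all genes had no day 10 peak. All 9 T-box, 5 GATA and 9 SOX genes with a day 5 peak had one on day 10. Intervals of the share without one reached 29.9%, 43.4% and 29.9%, so each includes the 28.7% of all genes. Within 10 kb 1 of 11 T-box and 1 of 10 SOX genes had none on day 10. Among 19 forkhead genes, all with a day 5 peak, Foxd1 alone lacked one on day 10 (5.26%, 0.935 to 24.6), and within 1 kb it was 2 of 13 (15.4%, 4.33 to 42.2). Of 25 bHLH genes with a day 5 peak 5 had none on day 10 (20%, 8.86 to 39.1), an interval that includes the value of all genes. They were Atoh7, Neurod6 and Olig2, which act in neurogenesis or glia, Neurog3, and Hand2, a heart and limb factor. Within 1 kb 5 of 13 bHLH genes (38.5%) had none on day 10.

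Of 39 Hox genes, which give segments along the body axis their identity, 35 had a day 5 peak and 32 a day 10 peak. Genes such as Hoxa7, Hoxb6, Hoxd3, Hoxd4 and Hoxd8 had a peak on day 5 only and Hoxa5, Hoxa9 and Hoxa11 on day 10 only. Hoxd3 and Hoxd4 were called in all other day 10 H3K27me3 libraries, and Hoxa7, Hoxb6 and Hoxd8 in some of them. Of the 35 genes 6 had none on day 10 (17.1%, 8.10 to 32.7), an interval that includes the 28.7% of all genes. Within 10 kb 1 of 39 genes with a day 5 peak lacked a day 10 peak (2.56%, beside 28.7% of all genes), whereas within 1 kb it was 11 of 29 (37.9%, beside 32.8%). The Hoxa cluster held 10 peaks on each day, of which 5 were lost and 5 were new. Peaks went from 20 to 14 at Hoxb, from 17 to 14 at Hoxc and from 14 to 9 at Hoxd. No cluster was emptied, and Hoxd1 kept the highest score of the clusters on both days (109 and 76.5).

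Of 48 genes of secreted signals (WNT, BMP, FGF, hedgehog, NODAL and LEFTY) 40 had a day 5 peak and 36 a day 10 peak. A day 10 peak was missing at 8 of the 40 (20%, 10.5 to 34.8, which includes the 28.7% of all genes). They were Wnt8b, Fgf6, Fgf16, Fgf21, Shh, Dhh, Lefty1 and Lefty2. Shh, the hedgehog ligand of limb and neural tube patterning, had a day 5 score of 23.5 (rank 1926) and Dhh one of 38.0. A day 10 peak without a day 5 peak was found at Wnt2, Wnt5a, Wnt9a and Fgf23, with scores of 7.57 to 12.6.

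**Figure D3:**
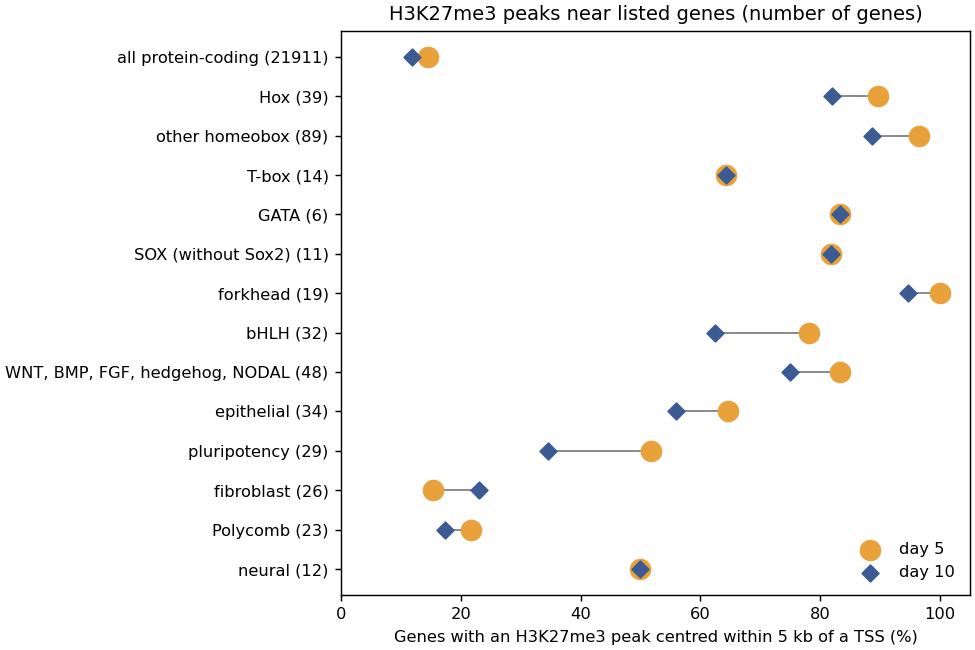
Share of the genes of each list (%, x axis; number of genes in brackets) with an H3K27me3 peak centred within 5 kb of a TSS on day 5 (circles) and day 10 (diamonds). Hox, homeobox, forkhead, SOX and GATA genes lie above 80% on both days, all protein-coding genes at 14.5% and 11.9%, and the fibroblast list is further right on day 10.

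Of 34 epithelial genes of junctions, keratins and transcription factors 22 had a day 5 peak and 19 a day 10 peak. Cdh1, Cldn4 (a tight junction claudin), Pkp1 (a desmosome protein) and the transcription factors Grhl1 and Grhl3 had a peak on day 5 only, which is 5 of 22 (22.7%, 10.1 to 43.4) beside 28.7% of all genes. The peak at Cdh1 had a score of 36.6 and rank 1147 on day 5, and was also called in WT MEFs with a score of 94.6. The keratin genes Krt7 and Krt18 had a peak on day 10 only, with scores of 7.76 and 7.56. Relative rank is the rank of a gene's best peak as a percentage of the list. Of the 17 epithelial genes called on both days 14 stood further down on day 10 (82.4%, 59.0 to 93.8), with a median shift of 12.7 points. Overall it was 1388 of 2271 genes (61.1%), which lies within that interval, with a median shift of 4.00 points. Among secreted signals 22 of 32 genes stood further down (median shift 9.31 points) and among neural genes 4 of 5 (9.79 points). Grhl2 went from rank 29 to rank 506, Ovol1 (a repressor of mesenchymal genes) from 83 to 1457, Epcam (an epithelial adhesion molecule) from 490 to 2611 and Lad1 (an anchoring filament protein) from 233 to 1715. Cldn6, a claudin of early embryonic epithelia, went the other way from 4701 to 912.

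Of 29 pluripotency genes 15 had a day 5 peak and 10 a day 10 peak, and 5 of the 15 (33.3%, 15.2 to 58.3) had none on day 10, beside 28.7% of all genes. Those were Tdh (threonine dehydrogenase), Nanog, Lin28b, Tdgf1 (a NODAL co-receptor) and Trim71. Lin28b had the highest day 5 score among them, 43.8, whereas Nanog had 7.61, close to the lowest score of the list, 6.57. Lin28b was called in all other day 10 H3K27me3 libraries, with scores of 31.6 (wild-type with JMJD3), 10.2 (KO FLAG) and 25.4 (KO with JMJD3). Tdh, Nanog, Tdgf1 and Trim71 were called in none of those. Esrrb, Lin28a, Mycn, Prdm14, Sall1, Sall4, Utf1, Nr5a2, Klf2 and Dnmt3l had a peak on both days. Utf1 went from rank 13 to 533 and Sall4 (a zinc-finger factor of early embryo cells) from 333 to 2651. Esrrb, an orphan nuclear receptor, stood at 201 and 79, and Lin28a at 237 and 151. The median shift of the 10 genes was 0.184 points, with 5 further down and 5 further up.

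Genes of the 4 delivered factors are given apart, because virus-borne cDNA reads cannot be separated from reads of the endogenous coding exons. The Sox2 peak covered 560 coding bases on day 5 and 856 on day 10, and its rank was 2420 and 62. The Klf4 peak covered 632 and 847 coding bases, with ranks 2405 and 35. Myc had a peak on day 10 only (score 7.52), and no peak lay within Pou5f1 (Oct4) on either day. In WT MEFs, which had no virus, Sox2 and Klf4 also had peaks within the gene, with scores of 9.48 and 11.1, and so did Pou5f1 with a score of 7.96. How much of these peaks came from the vectors was not tested.

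**Figure D4:**
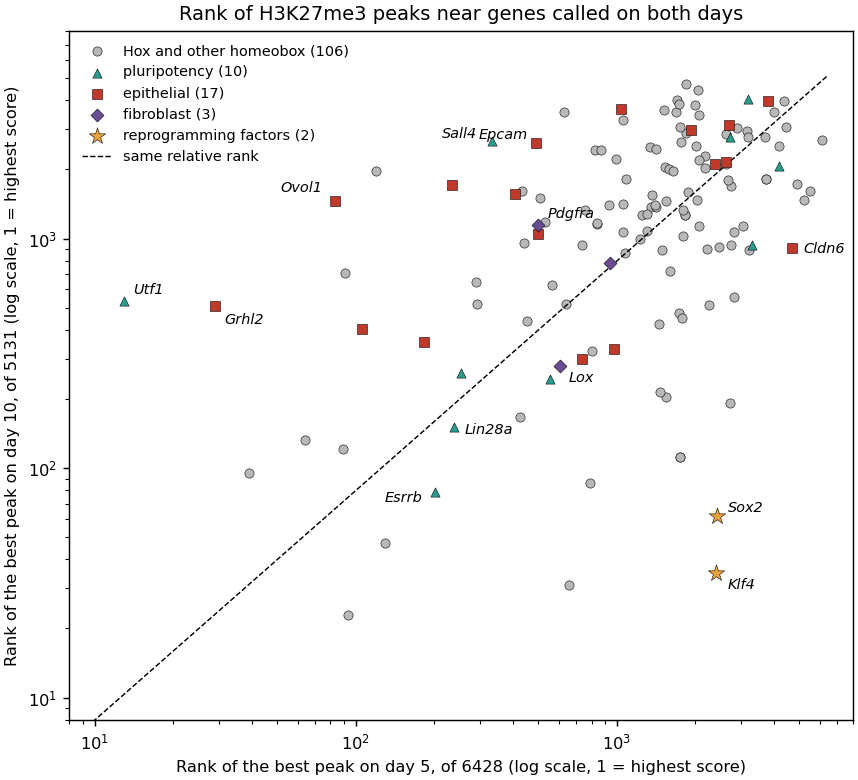
Rank of the best peak near each listed gene on day 5 (x axis, log scale) against day 10 (y axis, log scale), for genes with a peak on both days, 1 being the highest score. Points above the dashed line stood relatively lower in the day 10 list. Most epithelial genes (red squares) lie above the line, and Sox2 and Klf4 (stars) lie far below it.

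Of 26 fibroblast genes of matrix, cytoskeleton and mesenchymal adhesion 4 had a day 5 peak (15.4%) and 6 a day 10 peak (23.1%), beside 14.5% and 11.9% of all protein-coding genes. Pdgfra, Lox and Loxl1 had a peak on both days and none in WT MEFs. Col5a1, Cdh2 (N-cadherin) and Cdh11 had a peak on day 10 only, with scores of 15.9, 11.0 and 14.2. In the other 8 lists Col5a1 was called in both exogenous JMJD3 libraries of day 10, Cdh2 in both KO libraries of day 10 and Cdh11 in the KO library with JMJD3 of day 10, and none of the 3 on day 5 or in MEFs. Thy1, a fibroblast surface protein, had a peak on day 5 only (score 17.9). Collagen genes Col1a1, Col1a2 and Col3a1 had none. Because the mark reports silent genes and no transcripts were measured in these libraries, the labelled cell state could not be checked from markers. Of 7 mesenchymal transcription factor genes Snai1 (score 7.87) and Twist2 (15.2) had a day 5 peak and none had a day 10 peak.

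Smaller lists gave single genes, beside a peak at 14.5% of all genes on day 5 and at 11.9% on day 10. Cdkn2a, which encodes the senescence proteins INK4A and ARF, counted as day 5 only (score 12.2), but its day 5 peak overlapped a day 10 peak whose centre was beyond 5 kb. Cdkn1c had a peak on both days. Among Polycomb and H3K27 demethylase genes Cbx2, Cbx8 and Bmi1, for example, had peaks on both days and Phc2 had one on day 5 only. Kdr, a receptor of endothelial cells, was the only 1 of 13 blood and endothelial genes with a peak (7.69%), on both days. Of 12 neural genes 6 had a peak on each day (50%), with Gfap on day 5 only and Tubb3 on day 10 only.

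Among all genes with a day 5 peak only, the highest scores belonged to Keap1, Kcnk12 (a potassium channel subunit, score 83.7), Car11 (75.8), Phyhip (74.7), Smagp (74.1), Spock2 (an extracellular proteoglycan, 72.6), Mroh5 and Gm6569, which share a peak (69.9), Fignl2 (69.7) and Atp2a3 (a calcium pump of the endoplasmic reticulum, 66.3). Apart from Keap1 their ranks were 221 to 384 of 6428, so each came from the highest quartile of the list. Keap1 was a case of the 5 kb limit, as its peak (rank 21) lay in an exon of the neighbouring gene S1pr5 and was shared with day 10. All of these peaks lay near genes that also had a peak in WT MEFs, with scores of 34.9 to 120. For day 10 only, the highest scores belonged to Zpbp2 (61.9), Lrrc3c (32.8), Gng8 (25.4), Hs1bp3 (24.4), Yjefn3 (23.5), Pde7b (22.9), Zfp703 (20.1), Vcan (18.6), Vash2 (18.2) and Pnmal1 (17.8). Zpbp2 and Yjefn3 were again shared peaks at the 5 kb limit. Vcan encodes versican, a matrix proteoglycan of fibroblasts, and Pde7b a cyclic AMP phosphodiesterase with 3 day 10 peaks. Of the 10 genes, Vcan, Zfp703, Pde7b, Vash2, Gng8, Yjefn3 and Pnmal1 had no peak in WT MEFs.

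Genes at the top on both days were Egr4, Trank1, Ajm1, Amn, Sowaha with Gm9945, Aida with Brox, and Gm10800 with Gm10801, where pairs share a peak. Egr4, an early growth response factor, had ranks 9 and 10, and Trank1 had ranks 20 and 11. The Gm10800 peak was 86.5% repeat-masked, and it had a score of 200 in each of the 10 lists.

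The classes were then looked up in the other 8 H3K27me3 lists, which had no part in defining them. Kept peaks were called in these lists far more often than lost peaks, and new peaks were called least often or about as often as lost ones. Kept peaks were found in a median of 7 of 8 lists, lost peaks in 2 and new peaks in 1. Kept peaks also had higher day 5 scores than lost peaks (median 24.2 and 8.95). Apart from WT MEFs, the shares in these lists were not compared within score quartiles. No other list held 46.0% (43.7 to 48.3) of new peaks and 26.2% (24.6 to 27.7) of lost peaks, against 1.55% (1.19 to 2.03) of kept peaks. In WT MEFs 76.9% of kept, 41.5% of lost and 17.4% of new peaks were called. Seen the other way, day 5 peaks that were also called in WT MEFs were lost in 33.2% (31.7 to 34.7) and the others in 70.0% (68.2 to 71.8), a difference of 36.9 points (34.5 to 39.1), which was 10.7 points on average within score quartiles.

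**Figure D5:**
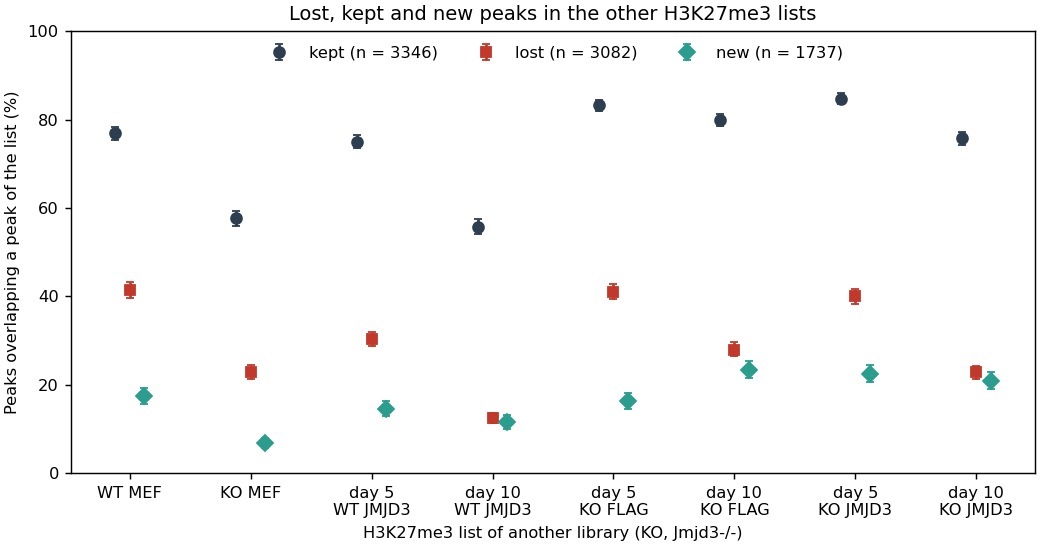
Share of kept (circles), lost (squares) and new (diamonds) peaks that overlapped a peak (%, y axis, 95% Wilson intervals) in each of the other 8 H3K27me3 lists (x axis). Kept peaks lie between 55.8% and 84.8%, lost peaks between 12.4% and 41.5% and new peaks between 6.79% and 23.4%.

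Whether the same sites went missing without Jmjd3 was asked in KO cells with the FLAG vector. Their lists held 5643 peaks on day 5 and 5376 on day 10, a ratio of 0.953 (0.918 to 0.989), and 41.7% (40.5 to 43.0) of the day 5 peaks had no day 10 peak. At the 4055 wild-type day 5 peaks that were also called in day 5 KO cells, 54.3% (51.5 to 57.0) of those lost in wild-type cells had no day 10 KO peak, against 13.9% (12.7 to 15.3) of those kept. The difference of 40.4 points (37.3 to 43.4) was 27.5 points on average within quartiles of the wild-type score. Of new peaks absent from day 5 KO cells, 18.2% (16.3 to 20.3) were called in day 10 KO cells. Among genes, 678 of 2959 with a day 5 KO peak had none on day 10 (22.9%). Of the 913 genes with a wild-type day 5 peak only, 39.6% (36.5 to 42.9) had a peak in day 10 KO cells, against 87.9% (86.5 to 89.2) of the genes with a wild-type peak on both days. On day 5 the KO list already held 59.4% of the former and 91.6% of the latter. At genes with a day 5 KO peak, 286 of 542 (52.8%, 48.6 to 56.9) and 1879 of 2081 (90.3%, 88.9 to 91.5) had a day 10 KO peak. Cdh1 had a day 10 KO peak (score 9.69), as did Lin28b (10.2), Phc2 (7.98), Thy1 (17.7) and Shh (8.19), whereas Cldn4, Pkp1, Tdh, Tdgf1 and Trim71 had a peak in these KO cells on day 5 only. Grhl1, Grhl3 and Nanog had none there on either day.

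Binding of KLF4 and of FLAG-tagged JMJD3 on day 5 was also set beside the classes. KLF4 peaks of the day 5 FLAG library overlapped 62 lost (2.01%), 92 kept (2.75%) and 23 new peaks (1.32%). Day 5 peaks with KLF4 were lost in 40.3% (32.8 to 48.2) and those without in 48.1% (46.9 to 49.4), a difference of -7.88 points (-15.4 to 0.112), so that no difference was detectable. Within score quartiles it was 12.2, -10.7, 10.9 and -15.0 points from the highest to the lowest, and -0.616 on average. JMJD3 positions, which came from a library with exogenous JMJD3 and OSKM, fell in 18 lost, 25 kept and 16 new peaks, and the difference in loss was -6.13 points (-19.7 to 8.73), or -5.96 on average within quartiles.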

How the data were processed

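H3K27me3 ChIP-seq peak lists of 10 libraries were used, with 1 day 5 KLF4 list and 1 day 5 JMJD3 list. The authors mixed Drosophila S2 chromatin into the H3K27me3 samples, aligned reads to mm10 with bowtie2 (version 2.2.0 in the submitters' processing notes) and called peaks per library with DFilter (H3K27me3) or MACS2 (KLF4, JMJD3). The deposited H3K27me3 lists give 1000 bp intervals with a score on an unstated scale, used here to rank peaks and form quartiles within a list, while scores of different lists are given side by side only as values. The deposited KLF4 and JMJD3 lists give intervals or positions without a score, counted as other values. The JMJD3 list with low KLF4 was not used here.

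A day 5 and a day 10 peak were matched when they shared 1 bp or more, in the full lists and at equal length. TSSs came from GENCODE M21 basic transcripts and sequence from GRCm38.p6. Python 3.11.15, numpy 2.4.6, scipy 1.17.1 and matplotlib 3.10.9 were used. Counts of matched peaks were checked with bedtools 2.31.1 and, on 12105 simulated day 5 and day 10 regions, 100% were classified correctly. Members and the 17 gene lists were chosen with earlier results of these data known. Named genes were list members and, by score, the 10 highest genes with a day 5 peak only, the 10 with a day 10 peak only and the 10 with the lowest summed rank on both days. Other genes were named after their values were seen. Alternatives covered the overlap rule, list length, sex chromosomes, TSS distance, transcript set and domain distance. Some list members are not reported here.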

Additional observations from a re-analysis of the deposited data

Results flagged for a closer look

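In the number of genes with a peak, 3 lists went in opposite directions in wild-type and KO FLAG cells between day 5 and day 10, each from 1 library per group and without a test of the difference. Over all protein-coding genes the number went from 3184 to 2610 in wild-type cells and from 2959 to 2745 in KO cells. For Hox genes the number went from 35 to 32 in wild-type cells and from 31 to 32 in KO cells, a change of 1. For the delivered reprogramming factors it went from 2 to 3 in wild-type cells and from 4 to 2 in KO cells, a change of -2. For mesenchymal transcription factors it went from 2 to 0 in wild-type cells and from 0 to 3 in KO cells, a change of 3. In the day 10 KO list Snai1 and Twist2 scored 6.66 and 6.62. The lowest scores of the wild-type FLAG lists were 6.57 on day 5 and 6.62 on day 10. Twist2 was also called on day 10 in wild-type cells with exogenous JMJD3 (score 9.69), and Snai1 was not.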

How the results depend on the processing

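Groups had 1 library each and scores have no stated scale, so these values limit the comparison to called positions, and read depth is unknown from the lists. No paired analysis was possible because each group held 1 library and no result came from a test. The share of lost peaks was 55.4% with at least 50% overlap, 45.8% when day 10 peaks within 1 kb counted, 39.3% at equal list length, 40.0% for the better-scoring 50% of each list, 32.6% at the 3045 peaks of the shortest of the 10 lists, 61.3% in base pairs, and 21.8% for the better-scoring 50% against the full day 10 list. The share of new peaks was 43.8%, 31.4%, 37.9%, 24.9%, 32.6% and 51.5% under the corresponding settings. It was 12.3% for the better-scoring 50% against the full day 5 list. Lists cut to the same length have lost and new shares that are bound to be close, so their equality at the shortest length is no finding. Sex chromosomes moved neither share nor the ratio of peak numbers beyond their intervals. Nor did removal of peaks at least 50% repeat-masked, added after seeing the data.

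The share near a TSS for lost, kept and new peaks was 26.2%, 52.2% and 19.3% at 1 kb, 63.2%, 83.1% and 55.2% at 10 kb, and 38.2%, 65.8% and 29.7% for protein-coding transcripts. At equal list length it was 53.5% for lost and 75.8% for kept peaks. The difference of lost minus kept was -19.9 points at 10 kb, -27.6 for protein-coding transcripts, -22.3 at equal length and -9.35 within score quartiles, the last added after seeing the data. The KO difference was 27.5 points within score quartiles. Domains lost whole were 42.3% and, chained within 10 kb, 25.9%. Genes with a day 5 peak and none on day 10 made up 32.8% at 1 kb and 24.5% at equal length, and genes with a peak on both days numbered 1480 at 1 kb. The differences in peak shares kept their direction in these settings. Within 1 kb, however, the share of genes without a day 10 peak went from below to above that of all genes (32.8%) for Hox (37.9%), homeobox (34.0%) and bHLH genes (38.5%). Lists with at most 6 such genes (fibroblast, cell cycle inhibitor, Polycomb and neural) also changed sides under 1 or more settings. The other 26 values stayed within their interval or within 1.5 times the main count. For the CpG medians the range used was the quartile range of single peaks, which a median can hardly leave. At equal length these medians were 0.368 for lost, 0.576 for kept and 0.271 for new peaks. What moved the values outside these limits, beyond the settings themselves, was not tested.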

Other observations

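Peaks on the X chromosome, singled out after the values of all chromosomes were seen, were lost in 33 of 45 cases (73.3%, 59.0 to 84.0), and autosomal peaks in 47.8%, a difference of 25.6 points (11.1 to 36.3). Their median day 5 score was 10.4 against 13.2 on autosomes. In the lower 2 quartiles of the score, 26 of 29 X peaks (89.7%, 73.6 to 96.4) and 73.9% (72.3 to 75.4) of autosomal peaks were lost. On autosomes the share lost ran from 39.6% on chromosome 5 to 56.3% on chromosome 13.

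Klf4 and Sox2, 2 of the delivered factors, had H3K27me3 peaks in each of the 10 lists. The Klf4 score was 18.7 on day 5 and 66.0 on day 10 in wild-type FLAG cells, 16.5 and 51.1 with exogenous JMJD3, 17.5 and 66.5 in KO FLAG cells, and 34.8 and 78.2 in KO cells with JMJD3. The Sox2 score was 18.5 and 59.2, 11.98 and 35.77, 44.4 and 28.0, and 67.5 and 80.6 in the same order. Scores of different libraries have no common scale that is stated, and vector reads were not separated.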
